A study of Homo sapiens with 4 samples.

Results

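The 31 genes described here are enzymes of cholesterol and fatty acid synthesis and the genes that switch them on and off. They were picked by name and role, with earlier results of these data known, and no measured value enters the rule: 6 mevalonate and isoprenoid enzymes (HMGCS1, MVK, PMVK, MVD, IDI1, FDPS), 11 enzymes from squalene to cholesterol (FDFT1, SQLE, LSS, CYP51A1, TM7SF2, MSMO1, NSDHL, HSD17B7, EBP, SC5D, DHCR7), 5 genes of the SREBP pathway and sterol transfer (SREBF1, SREBF2, INSIG1, SCAP, STARD4) and 9 fatty acid enzymes (ACLY, ACACA, FASN, SCD, FADS1, FADS2, ELOVL5, ELOVL6, ACSS2). All 31 were among the 60279 genes of the human count table, and all 31 were among the 17322 that passed the filter on low counts. A synthesis rate was listed for 28 of the 31, out of 11777 genes with a rate.

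The cells were K562, a leukaemia line from a patient with chronic myeloid leukaemia that carries the BCR-ABL1 fusion and erythroid features. Untreated cultures were given 1 mM 4-thiouridine, a uridine analogue that enters RNA as it is made, for 5 or 15 min, with 2 libraries (replicates 1 and 2) at each label time. In transient transcriptome sequencing (TT-seq) the thiol-labelled RNA is fragmented, biotinylated and captured, so that reads come from RNA made during the label and introns are sampled beside exons. All 4 libraries shared the line, the absence of any other treatment, the dose and a spike of 15 µg RNA from Drosophila S2 cells in 150 µg of K562 RNA. The single comparison is 15 against 5 min of label.

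Cells make cholesterol from acetyl-CoA through mevalonate, isoprenoid diphosphates, squalene and lanosterol, and they make fatty acids from the same acetyl-CoA through malonyl-CoA, palmitate, elongation and desaturation. Both branches are targets of the SREBP transcription factors: SCAP carries an SREBP precursor from the endoplasmic reticulum to the Golgi for cleavage when sterols are low, and INSIG proteins hold the complex back when sterols are ample. SREBP2, from SREBF2, acts mainly on sterol genes and SREBP1, from SREBF1, mainly on fatty acid genes. In growing leukaemia cells both branches supply membrane lipid.

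The human reads per library numbered 4339981 to 5051370, and the fly reads 897018 and 803914 at 5 min against 318710 and 308978 at 15 min. Human reads per fly read were therefore 4.84 and 5.84 at 5 min and 15.8 and 15.3 at 15 min. Levels are given as fly-scaled reads, the reads of a gene per 1000000 fly reads of its library. An error in a fly total moves all genes of that library together, and 5 min replicate 2 lay above 5 min replicate 1 for each of the 31 genes on this scale. All 8 K562 markers examined had reads, with summed reads of 7549 to 9662 per library. Summed reads were 47 to 71 over 5 T cell markers (CD8A at 0), 28 to 75 over 4 B cell markers (MS4A1 at 0), 93 to 116 over 5 monocyte markers, 4 to 12 over 5 fibroblast markers (LUM at 0) and 160 to 280 over 4 epithelial markers (KRT5 at 0). Nothing in the labels tells whether replicates 1 and 2 were grown apart, so the p-values speak of library-to-library spread, which may be technical. That spread is estimated with information from all tested genes. A gene whose own libraries differ more can therefore still have a small SE and p-value.

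Before the read values, the promoters were searched for short motifs that many of these genes hold. RefSeq promoter windows on GRCh38.p14 were held for 28 of the 31 genes (the others are FASN, SQLE and FDFT1), and the 250 bases before each start were searched on both strands. The pentamer CCAAT, the core of the box bound by NF-Y, an SREBP partner, was found in 21 of 28 genes (75.0%), against 37.0% of the 27305 genes in the table. Counted by window, it was in 25 of 38 windows (65.8%) against 32.0% of all windows. In that count a gene with several starts enters more than once, and overlapping windows, as in ACLY, can hold the same match. Windows with 2 or more matches were held by 14 of the 28 genes (50% against 11.5%). By branch, CCAAT was found in 13 of 15 sterol enzyme genes, 3 of 5 SREBP pathway genes and 5 of 8 fatty acid genes. GGGCGG, a core of the Sp1 site, was in 26 of 28 (92.9% against 46.2%), and the E-box CACGTG in 4 of 28 (14.3% against 7.73%). A match is a string of letters and not a measured site. The 27305 genes were not limited to protein-coding genes or to those that passed the filter on low counts, as all 31 did. Whether the members differ from such genes in these motifs was not tested.

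The stretches below lie outside annotated exons and are printed 5′ to 3′ on the gene's strand, with CCAAT or its complement ATTGG in capitals. They were picked to show the box repeated in both branches: MSMO1 (chr4:165327419-165327622, plus strand), NSDHL (chrX:152830813-152830966, plus strand), MVD (chr16:88663162-88663297, minus strand) and DHCR7 (chr11:71448436-71448643, minus strand) from the sterol branch, ACLY (chr17:41919023-41919201, minus strand) and SCD (chr10:100346983-100347123, plus strand) from the fatty acid branch. In NSDHL 2 matches, 1 on each strand, overlap within one run of 8 letters.
MSMO1: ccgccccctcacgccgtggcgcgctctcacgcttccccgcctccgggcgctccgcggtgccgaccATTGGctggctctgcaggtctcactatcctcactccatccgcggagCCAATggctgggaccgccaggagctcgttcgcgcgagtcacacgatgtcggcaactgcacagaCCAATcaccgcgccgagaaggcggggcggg
NSDHL: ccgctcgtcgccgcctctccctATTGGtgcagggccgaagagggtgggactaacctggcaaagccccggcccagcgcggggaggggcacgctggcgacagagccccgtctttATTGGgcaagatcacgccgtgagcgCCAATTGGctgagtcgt
MVD: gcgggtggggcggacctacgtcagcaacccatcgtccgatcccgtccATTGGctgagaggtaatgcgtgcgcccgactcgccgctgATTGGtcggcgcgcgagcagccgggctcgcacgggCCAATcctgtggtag
DHCR7: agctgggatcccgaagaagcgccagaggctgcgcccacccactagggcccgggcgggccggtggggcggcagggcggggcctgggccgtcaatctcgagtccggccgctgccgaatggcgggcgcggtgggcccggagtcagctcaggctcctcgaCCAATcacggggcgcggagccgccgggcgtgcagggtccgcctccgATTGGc
ACLY: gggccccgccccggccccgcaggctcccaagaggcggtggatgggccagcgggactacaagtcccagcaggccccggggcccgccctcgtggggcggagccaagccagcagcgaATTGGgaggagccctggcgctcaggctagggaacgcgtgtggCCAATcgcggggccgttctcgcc
SCD: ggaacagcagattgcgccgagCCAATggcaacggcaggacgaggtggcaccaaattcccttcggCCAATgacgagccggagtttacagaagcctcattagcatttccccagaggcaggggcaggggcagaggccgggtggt
The box recurs at different spacings: 159, 120 and 85 bases before the start in MVD, 185, 139, 76 and 34 in MSMO1, 228, 138, 113, 110 and 84 in NSDHL and 229 and 186 in SCD. Those of MSMO1 at 34 and NSDHL at 84 bases fall in annotated exon and are not printed.

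The sterol regulatory element was searched as TCACNCCAC. Among the 28 genes it was found in SREBF2 alone, 133 bases before the start, beside 1.09% of the 27305 genes. By window it was in 1 of 38 (2.63%), against 0.883% of all windows. The match in SREBF2, itself the gene of SREBP2, is shown in capitals with its neighbouring bases (chr22:41832962-41832991, plus strand).
SREBF2: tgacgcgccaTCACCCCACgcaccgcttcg
For the other 27 genes the letters searched were not in these windows, which says nothing of SREBP binding there.

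Labelled RNA of these genes built up between 5 and 15 min, but by less than in most genes. On this fly-read scale 29 of 31 rose at an adjusted p under 0.05, beside 98.4% of all tested genes, and none fell, beside 0.0115%. The 2 that did not pass were PMVK and FASN, and for the same 29 genes both 15 min libraries lay above both 5 min libraries, beside 99.0% of all tested genes. The median fold, 15 over 5 min, was 2.42 over the 31 genes, 3.20 over all tested genes and 2.96 over tested protein-coding genes. Of the 31, 28 lay below the median of all tested genes, beside 7105 of the 11547 tested protein-coding genes. Label time itself grew by a factor of 3: only MVK, HSD17B7 and SREBF1, 3 of 31, exceeded a 3-fold gain, beside 58.1% of all tested genes and 47.8% of protein-coding ones. In the lowest 5% of folds, which held 5.01% of all genes, stood FASN, ACLY, PMVK, LSS, DHCR7, SCD and ACSS2, 7 of 31. A fold on this scale cannot separate a change in labelled RNA per cell from a change in the cells behind the RNA.

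The same counts were also compared as shares of labelled RNA, with smaller errors. Human reads were scaled to each other (TMM, which sets the bulk of genes to no change), and the value is the log2 fold change in a gene's share of labelled human RNA, 15 against 5 min. At an adjusted p under 0.05, 21 of 31 genes had a lower share at 15 min, beside 22.1% of all tested genes and 31.6% of protein-coding genes, and 1 (MVK) had a higher share, beside 16.0% and 13.0%. The other 9 did not pass. The median SE of the share change was 0.077 for the 31, 0.121 for protein-coding genes and 0.166 for all tested genes. A change of a given size therefore passes more easily among the 31, and the call percentages are not at equal power. The median was -0.39 over the 31, 0.016 over all tested genes and -0.099 over protein-coding genes. Both 15 min libraries lay below both 5 min libraries in share for 26 of 31 genes, beside 34.0% of all tested genes, and above them for 3, MVK, HSD17B7 and SREBF1, beside 33.5%. Scaling to total human counts instead of TMM moved the median of all genes by 0.12 on the log2 scale and the split of calls from 2773 higher and 3829 lower to 4233 and 2805, so the shares below are read relative to the bulk of genes.

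**Figure D1:**
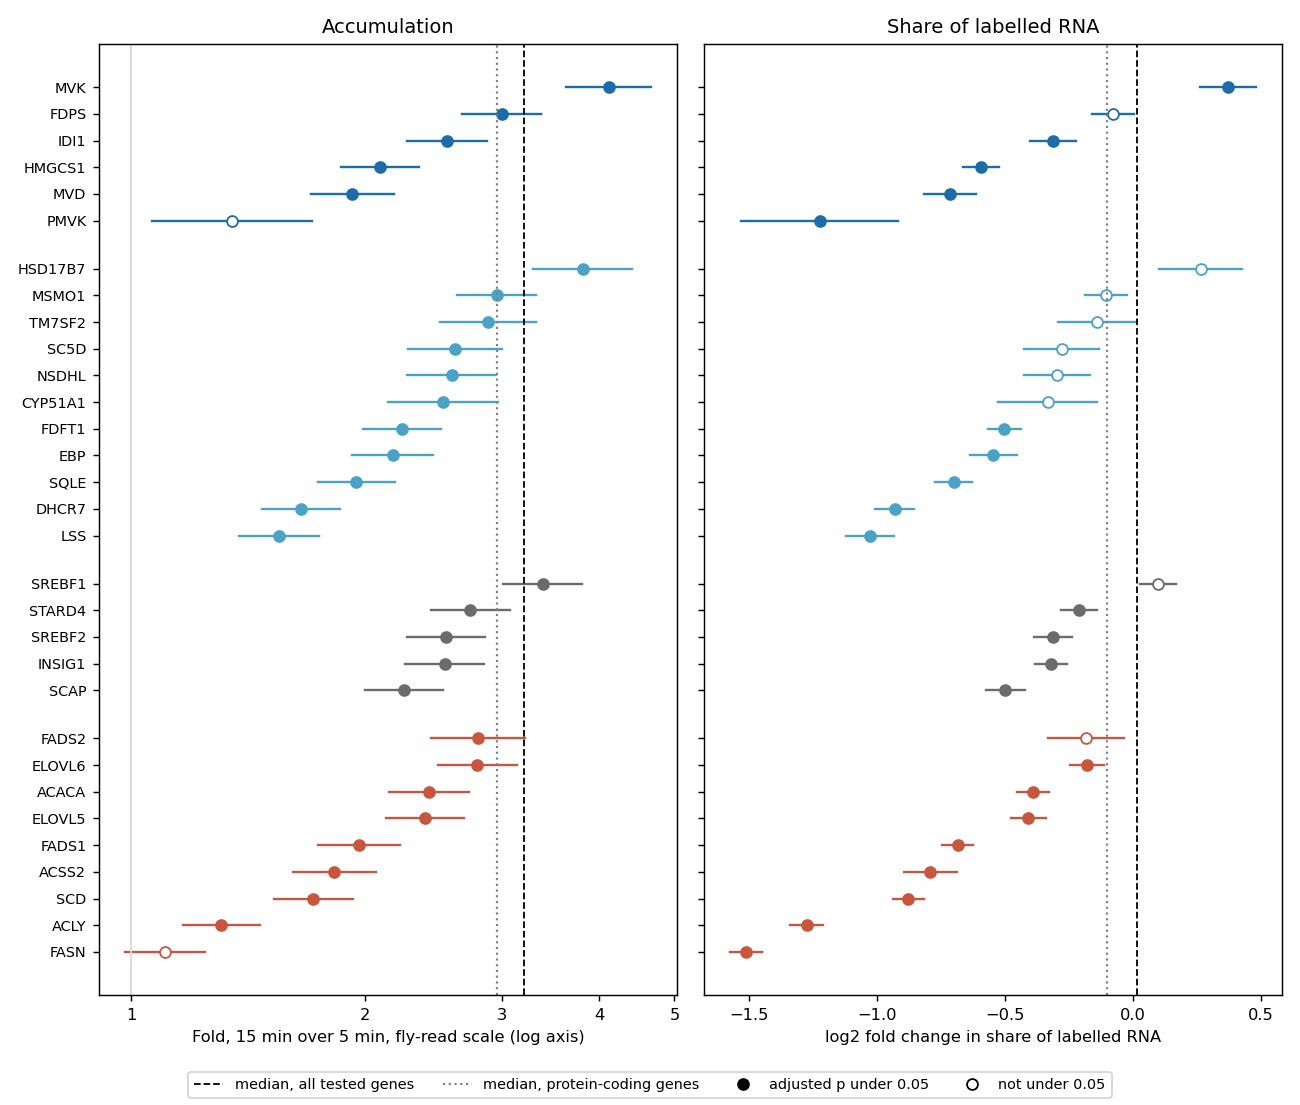
Fold of labelled RNA on the fly-read scale (left, log axis) and log2 fold change in share of labelled RNA (right), 15 over 5 min, for the 31 genes by role; points are fitted values, bars 1 SE, and filled points have an adjusted p under 0.05. Dashed and dotted lines are the medians of all tested and of protein-coding genes; 28 points lie left of the dashed line on the left, with FASN lowest at 1.11-fold and MVK highest at 4.11-fold.

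Among the mevalonate enzymes HMGCS1, which makes HMG-CoA from acetoacetyl-CoA, was the most abundant by reads. HMGCS1 (ENSG00000112972, chr5:43289395-43313512, minus strand, GRCh38 in GENCODE 29) was at 893 and 1173 fly-scaled reads at 5 min, replicates 1 and 2, and at 2165 and 2152 at 15 min. Both 15 min libraries were above both 5 min libraries, a 2.09-fold rise (log2 SE 0.166, adjusted p = 2.51e-10), while its share changed by -0.59 on the log2 scale (SE 0.0691, adjusted p = 2.72e-16). MVK, the kinase that phosphorylates mevalonate, did the opposite in share. MVK (ENSG00000110921, chr12:109573255-109598117, plus strand) had 211 and 219 fly-scaled reads at 5 min and 909.9 and 858 at 15 min, with well separated groups. Its 4.11-fold rise (log2 SE 0.182, adjusted p = 6.59e-28) was the largest of the 31, and its share was higher by 0.37 (SE 0.110, adjusted p = 0.00280). That share call was lost without 5 min replicate 2 (log2 0.29, adjusted p = 0.0939) and with DESeq2 (adjusted p = 0.0946). MMAB, the cobalamin gene that shares MVK's promoter region and 4.70% of its exonic bases on the opposite strand, had a fold of 3.24.

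PMVK, the second kinase of the pathway, was the least read of all 31 genes, at 14 to 43 reads per library. PMVK (ENSG00000163344, chr1:154924734-154936991, minus strand) was at 30.1 and 53.5 fly-scaled reads at 5 min and 65.9 and 45.3 at 15 min, and the groups overlapped. Its fold of 1.35 did not pass (log2 SE 0.342, adjusted p = 0.210) but passed without 5 min replicate 2 (log2 0.88, adjusted p = 0.0240). Its share changed by -1.22 (adjusted p = 0.000369), a call lost without the same library (adjusted p = 0.0802). MVD, which decarboxylates mevalonate diphosphate, went from 319 and 415 to 687 and 725 fly-scaled reads, a 1.93-fold rise with a share change of -0.71 (adjusted p = 3.84e-11). IDI1, the isomerase of isopentenyl diphosphate, went from 382 and 470.2 to 1054 and 1119.8, a 2.55-fold rise, and its share change of -0.31 passed (adjusted p = 0.00235). For both genes the 15 min libraries were above the 5 min libraries without overlap, as for 99.0% of all tested genes. FDPS, which makes farnesyl diphosphate, was the nearest of the 6 to the bulk of genes. FDPS was at 420.3 and 556 and then 1509 and 1411 fly-scaled reads, a 2.995-fold rise whose share change of -0.076 did not pass (adjusted p = 0.499) and turned to 0.041 under total-count scaling. FDPS has 8 annotated pseudogenes and shares 18.6% of its exonic bases with RUSC1-AS1 on the opposite strand, so its reads may be split or shared with those genes. Over the 6 mevalonate genes 5 rose, beside 98.4% of all tested genes, with a median fold of 2.31 and a median share change of -0.45.

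From squalene to cholesterol all 11 genes rose, by 1.55- to 3.81-fold with a median of 2.52, beside the 98.4% of all tested genes that rose. A lower share was called for 5 of the 11, beside 22.1% of all tested genes and 31.6% of protein-coding ones. FDFT1, squalene synthase, was at 1178 and 1510.1 fly-scaled reads at 5 min and 3018 and 2971 at 15 min, a 2.23-fold rise with a share change of -0.50 (SE 0.0649, adjusted p = 2.36e-13). SQLE, the epoxidase that makes squalene epoxide, was at 822 and 1005 and then 1738 and 1819, a 1.95-fold rise with a share change of -0.70 (SE 0.0722, adjusted p = 1.71e-20). In both genes the label times were far apart on the fly scale and in the opposite order in share. Such separation was found in 99.0% and 34.0% of all tested genes, respectively. LSS, which closes squalene epoxide to lanosterol, and DHCR7, which makes cholesterol from 7-dehydrocholesterol, gained least among the 11. LSS (ENSG00000160285, chr21:46188141-46228824, minus strand) was at 428 and 549 and then 678 and 835 fly-scaled reads, 1.55-fold (log2 SE 0.172, adjusted p = 0.000272), and its share changed by -1.03 (SE 0.0940, adjusted p = 5.47e-26). Without 15 min replicate 2, the higher of its 15 min values, the rise of LSS no longer passed (adjusted p = 0.144). DHCR7 (ENSG00000172893, chr11:71428193-71452868, minus strand) was at 669 and 897 and then 1227 and 1363, 1.66-fold (log2 SE 0.167, adjusted p = 1.52e-05), with a share change of -0.93 (SE 0.0775, adjusted p = 3.53e-31). On the fly scale the 2 label times did not overlap for either gene, as for 99.0% of all tested genes.

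Most other enzymes of this group were closer to the bulk of genes. EBP, the sterol isomerase, was the fifth gene of this group with a lower share, going from 395 and 489 to 998 and 916 fly-scaled reads (2.169-fold, share change -0.54, adjusted p = 3.05e-08). MSMO1, the methyl sterol oxidase that begins removal of the C4 methyl groups, went from 470.4 and 529.9 to 1415 and 1537 (2.95-fold, share change -0.10, adjusted p = 0.331), and its share change turned to 0.013 under total-count scaling. NSDHL, the dehydrogenase of the same demethylation, went from 181 and 199 to 524 and 456 (2.58-fold, share change -0.30, adjusted p = 0.0583). In share the label times overlapped for MSMO1, as they did for FDPS, and were separate for NSDHL. HSD17B7, the ketoreductase that ends it, rose most in this group, from 87.0 and 102 to 386 and 333 (3.81-fold, log2 SE 0.211, adjusted p = 2.66e-19), and its share change of 0.27 did not pass (adjusted p = 0.189), though it did under total-count scaling (adjusted p = 0.0466). HSD17B7 has 2 annotated pseudogenes that could take or give reads. TM7SF2, a sterol C14 reductase, went from 117 and 137 to 348 and 382 (2.88-fold, share change -0.14, adjusted p = 0.501), and SC5D, the C5 desaturase, from 122 and 167 to 339 and 411 (2.61-fold, share change -0.28, adjusted p = 0.124). CYP51A1, the lanosterol C14 demethylase, had only 61 to 68 reads per library. It was at 75.8 and 79.6 and then 195 and 197 fly-scaled reads (2.52-fold, share change -0.33, adjusted p = 0.169). GENCODE 29 places AC000120.2 on the same strand over 79.4% of the exonic bases of CYP51A1. AC000120.2 was not among the genes counted, so reads in the shared bases cannot be assigned to either gene and the count of CYP51A1 is uncertain. CYP51A1 also has 3 annotated pseudogenes that could take or give reads. In all 6 genes of this paragraph whose shares did not pass, the 15 min libraries were above the 5 min libraries on the fly scale. The same held for 99.0% of all tested genes.

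**Figure D2:**
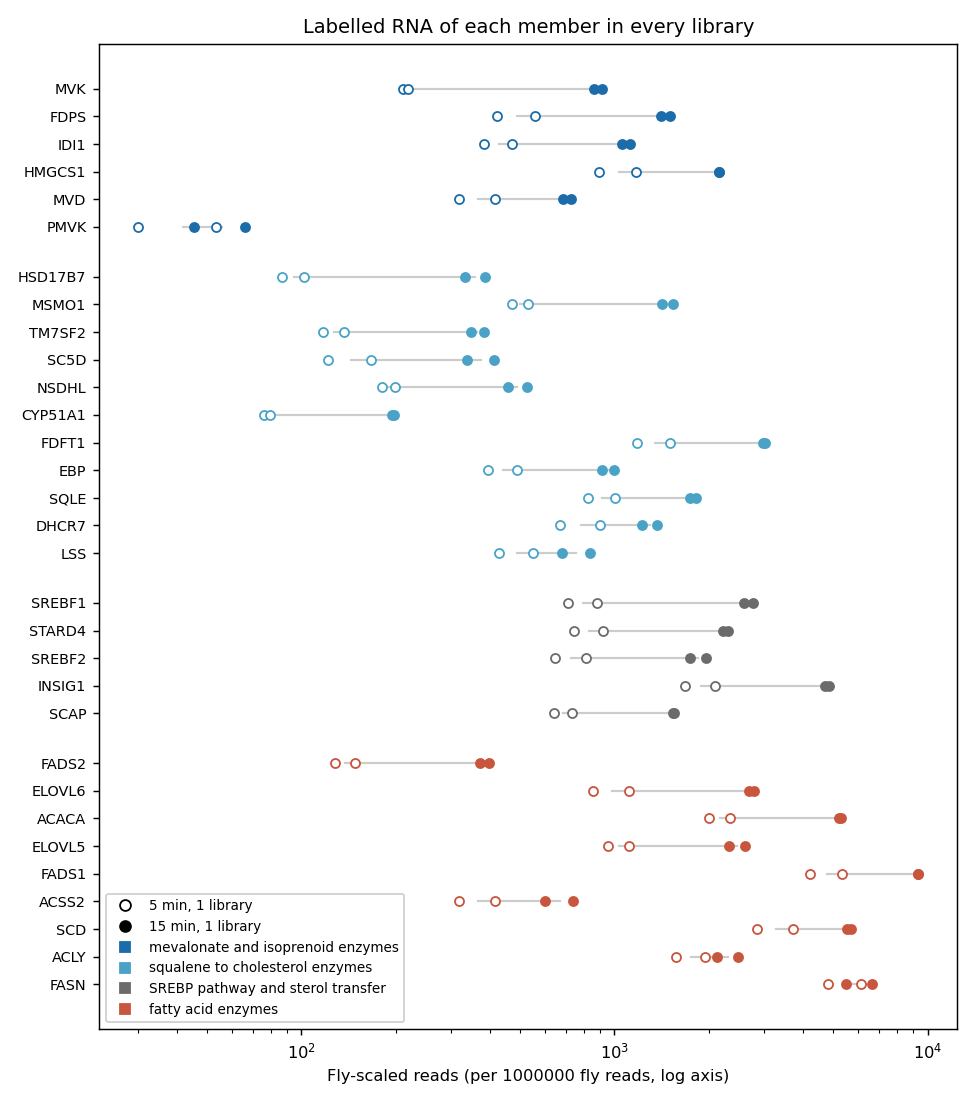
Fly-scaled reads (per 1000000 fly reads, log axis) of each of the 31 genes in every library, ordered by fold within each role; open circles are the 5 min libraries, filled circles the 15 min libraries, and the grey line joins the 2 means. The groups overlap only for PMVK and FASN; MVK, HSD17B7 and SREBF1 show the widest gaps.

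The 5 SREBP pathway genes had folds of 2.24 to 3.39, and each rose, as did 98.4% of all tested genes. SREBF1 (ENSG00000072310, chr17:17810399-17837002, minus strand) and SREBF2 (ENSG00000198911, chr22:41833079-41907308, plus strand) encode the 2 precursors. SREBF1 was at 709 and 878 fly-scaled reads at 5 min and 2777 and 2592 at 15 min, a 3.39-fold rise (log2 SE 0.169, adjusted p = 2.72e-24), and SREBF2 was at 644 and 812 and 1958 and 1744, a 2.54-fold rise (log2 SE 0.167, adjusted p = 2.08e-15). The share change was 0.099 for SREBF1 (SE 0.0696, adjusted p = 0.267) and -0.31 for SREBF2 (SE 0.0741, adjusted p = 0.000145). Per kb of exon, SREBF1 stood at 1.04 and 1.02 times SREBF2 at 5 min and 1.33 and 1.40 times at 15 min. On this measure the 2 genes were level at 5 min and SREBF1 was ahead in both 15 min libraries. The measure assumes that reads were counted over exons, which the sources used do not state. The difference in fold between the 2 genes was not tested. Under total-count scaling the share of SREBF1 passed as higher (adjusted p = 0.00738).

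INSIG1, the sterol-sensing anchor of SCAP and itself an SREBP target, had the highest level per length of the 5. INSIG1 (ENSG00000186480, chr7:155297776-155310235, plus strand) was at 1678 and 2099.7 fly-scaled reads at 5 min and 4700.2 and 4861 at 15 min, a 2.53-fold rise (log2 SE 0.169, adjusted p = 6.38e-15) with a share change of -0.32 (SE 0.0613, adjusted p = 1.78e-06). Per kb of exon this was 517 ± 81.7 (mean ± SD, n = 2) fly-scaled reads at 5 min and 1309.8 ± 31.2 at 15 min. SCAP, the SREBP escort, was at 642 and 731 and then 1547 and 1534 (2.24-fold, share change -0.50, adjusted p = 1.25e-09). STARD4, a soluble sterol transfer protein, was at 741 and 918 and then 2225 and 2304 (2.73-fold, share change -0.21, adjusted p = 0.00993). Groups were separate on the fly scale for all 3, as for 99.0% of all tested genes. The share calls of INSIG1 and SCAP, unlike that of STARD4, were kept in every alternative run.

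The fatty acid enzymes gained least, with a median fold of 1.96. Of the 9, 8 rose, beside 98.4% of all tested genes, and none gained over 3-fold, beside 58.1%. A lower share was called for 8 of 9 (median -0.68), beside 22.1% of all tested genes and 31.6% of protein-coding ones. FASN, the multidomain synthase that builds palmitate, stood furthest from other genes. FASN (ENSG00000169710, chr17:82078333-82098332, minus strand) was at 4807 and 6132 fly-scaled reads at 5 min and 5472 and 6632 at 15 min, and the 2 label times interleaved. Its fold of 1.11 (log2 SE 0.171, adjusted p = 0.394) was at percentile 0.242 of all tested genes. The outcome rested on the 5 min libraries: the log2 value was -0.020 without replicate 1 (adjusted p = 0.805) and 0.33 without replicate 2 (adjusted p = 3.15e-05). In share FASN was clear of that spread. It made up 1027 and 1101 counts per 1000000 human counts (CPM, TMM-scaled) at 5 min and 332 and 416 at 15 min, a log2 fold change of -1.51 (SE 0.0620, adjusted p = 5.74e-123) that lay between -1.68 and -1.34 with any one library left out.

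ACLY, which cleaves citrate to cytosolic acetyl-CoA and feeds both branches, came next. ACLY (ENSG00000131473, chr17:41866908-41930542, minus strand) was at 1577 and 1942 fly-scaled reads at 5 min and 2121 and 2476 at 15 min, so the 15 min libraries were higher by a small margin. The 1.31-fold rise passed (log2 SE 0.166, adjusted p = 0.0204) but not without 15 min replicate 1 (adjusted p = 0.144) or 15 min replicate 2 (adjusted p = 0.421). Its share went from 337 and 349 CPM to 129 and 155, a change of -1.27 (SE 0.0656, adjusted p = 1.83e-80). ACSS2, the other source of cytosolic acetyl-CoA, from acetate, went from 319.9 and 415 to 737 and 602 fly-scaled reads (1.83-fold, share change -0.79, adjusted p = 3.16e-13). ACACA, which makes malonyl-CoA and spans 322 kb, the longest locus of the 31, went from 2002 and 2345 to 5287 and 5217 (2.42-fold, share change -0.39, adjusted p = 2.21e-09). On the fly scale the label times did not overlap in any of the 3, as for 99.0% of all tested genes. The difference in fold between the acetyl-CoA suppliers and the carboxylase that uses their product was not tested.

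The 3 desaturases and 2 elongases had folds of 1.72 (SCD) to 2.79 (FADS2), above those of FASN and ACLY. SCD, the stearoyl-CoA desaturase, at chr10:100347124-100364834 on the plus strand, was at 2845 and 3713 fly-scaled reads at 5 min and 5535 and 5716 at 15 min, a 1.72-fold rise (log2 SE 0.169, adjusted p = 5.08e-06) with a share change of -0.88 (SE 0.0608, adjusted p = 9.91e-45). FADS1 and FADS2, the delta-5 and delta-6 desaturases of polyunsaturated fatty acids, lie on opposite strands of chromosome 11, with the FADS1 locus inside that of FADS2, and share 490 exonic bases. FADS1 (chr11:61799625-61829318) was at 4198 and 5323 and then 9350.2 and 9353, the most reads of any of the 31 at 15 min (1.96-fold, share change -0.68, adjusted p = 1.38e-27). FADS2 (chr11:61792980-61867354) was at 128 and 148 and then 398 and 372 (2.79-fold, share change -0.18, adjusted p = 0.340). Per kb of exon FADS1 stood 35.3 and 38.8 times above FADS2 at 5 min and 25.3 and 27.1 times at 15 min. Reads in the shared bases cannot be assigned without the strand, and that setting of the counts was not given in the sources used. ELOVL5, which lengthens polyunsaturated chains, went from 954 and 1117 to 2611 and 2330.3 (2.39-fold, share change -0.41, adjusted p = 2.09e-08), and ELOVL6, which lengthens palmitate, from 853 and 1111 to 2789 and 2683 (2.79-fold, share change -0.18, adjusted p = 0.0246). In all 5 genes the 15 min libraries were above the 5 min libraries on the fly scale, as for 99.0% of all tested genes.

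Summed over their members, the branches were in a different ratio at the 2 label times. Reads of the 17 sterol enzymes summed to 6799 and 8551 fly-scaled reads at 5 min and 17257 and 17532 at 15 min, 2.27-fold by the means. Those of the 9 fatty acid enzymes summed to 17685 and 22246 and 34301 and 35381, 1.75-fold, and those of the 5 SREBP pathway genes to 4415 and 5439.6 and 13206 and 13037, 2.66-fold. The ratio of fatty acid to sterol reads, which needs no spike-in, was 2.60 and 2.60 at 5 min and 1.99 and 2.02 at 15 min, so both 15 min libraries were below both 5 min libraries by far more than libraries of one label time differed. An exact two-sided permutation test over the 4 libraries gave p = 0.333, the smallest this design allows. The size of this shift rested in part on FASN, the fatty acid gene with the most reads in both 5 min libraries. Without FASN, left out after its values were seen, the ratio was 1.89 and 1.88 at 5 min and 1.67 and 1.64 at 15 min, and by the means the ratio at 15 min was 0.876 of that at 5 min. Without the gene with the most reads over all libraries in each branch, FADS1 and FDFT1, the ratio at 15 min was 0.737 of that at 5 min, against 0.770 with them. Single genes did not sort cleanly by branch: LSS and DHCR7 lay among the fatty acid genes of low fold, and FADS2 and ELOVL6 among the sterol genes. As shares of all human reads, the fatty acid branch held 0.366 and 0.381% at 5 min and 0.216 and 0.231% at 15 min, and the sterol branch 0.141 and 0.146% and 0.109 and 0.115%.

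Levels per length and locus lengths were set beside the folds. The levels divide counts by exonic length, and whether reads in introns were counted is not given. Per kb of exon the highest levels at 5 min were those of SCD (612 ± 114, mean ± SD, n = 2), FASN (584 ± 100.1), INSIG1 (517 ± 81.7), FADS1 (465 ± 77.7) and ACLY (337 ± 49.4). The lowest were those of FADS2 (12.5 ± 1.27), HSD17B7 (19.8 ± 2.23) and CYP51A1 (21.7 ± 0.750). At 5 min the SDs hold the library-wide shift of the fly scale, so neighbours are compared within a library. SCD stood at 1.03 and 1.06 times FASN in the 5 min libraries, FASN at 1.12 and 1.138 times INSIG1 and INSIG1 at 1.12 and 1.11 times FADS1, so the order was the same in both, with SCD and FASN nearly level. At 15 min INSIG1 (1309.8 ± 31.2) was above SCD (1049 ± 23.8), FADS1 (914 ± 0.223) and FASN (646 ± 87.6). Within the 15 min libraries INSIG1 stood at 1.25 and 1.25 times SCD, SCD at 1.13 and 1.17 times FADS1 and FADS1 at 1.56 and 1.29 times FASN, again the same order in both. Across the 31 genes the fold and the 5 min level per kb had a Spearman rho of -0.44, against -0.32 across all tested protein-coding genes. These points share libraries, and the level is part of the fold, so the values are descriptions. Fold and locus length had rho = 0.73 across the 9 fatty acid genes, from the 20.0 kb of FASN and 17.7 kb of SCD to the 153 kb of ELOVL6 and 322 kb of ACACA. Across the 17 sterol genes it was -0.14 and across protein-coding genes -0.17. The part of level or length in the low folds was not tested.

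Other genes of lipid metabolism had medians between those of the 31 and those of all tested genes. Of 74 genes in 5 further lists 65 passed the filter on low counts, and of these 63 rose and none fell, with a median fold of 2.78; 25 had a lower share and 7 a higher one (median -0.19). The counts of these lists stand beside the 98.4% of all tested genes that rose and the 31.6% lower and 13.0% higher in share among protein-coding genes. Other isoprenoid and sterol enzymes were nearest to the members, with 6 of 12 lower and 1 higher in share and a median fold of 2.62. LBR, another sterol C14 reductase in the nuclear envelope, changed in share by -0.66 (adjusted p = 1.07e-24). FNTA, a farnesyltransferase subunit, had a share change of 0.041 that did not pass (adjusted p = 0.721). The value of LBR is near those of SQLE and HMGCS1 above.

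Among 13 other SREBP control genes the median fold was 3.14, with 4 lower and 2 higher in share, shares near those of protein-coding genes (31.6% and 13.0%). SPRING1, a cofactor of SREBP cleavage, changed in share by -1.01 on the log2 scale (adjusted p = 5.34e-10). RNF139 and TRIB1 were the 2 higher in share, by 0.27 (adjusted p = 0.00469) and 0.50 (adjusted p = 1.04e-06). MBTPS1, the protease that makes the first SREBP cleavage, had a share change of -0.0086 (adjusted p = 0.943).

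In sterol storage, transfer and export 12 of 17 genes passed the filter. Of these 11 rose, beside 98.4% of all tested genes, and 6 were lower and 1 higher in share. Among protein-coding genes 31.6% were lower and 13.0% higher. OSBPL8 (-0.80, adjusted p = 1.49e-26), SCARB1, the HDL receptor (-0.66, adjusted p = 2.96e-18) and OSBP (-0.17, adjusted p = 0.0371) were lower in share. OSBPL9 had a share change of -0.079 (adjusted p = 0.320), and MYLIP, the ligase that targets lipoprotein receptors, was higher by 0.21 (adjusted p = 0.00465). The gene that did not pass on the fly scale was NPC2, with a fold of 1.22 (adjusted p = 0.370), and ABCA1, the cholesterol exporter, had 2 to 5 reads per library. Both were named after their values were seen.

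Other fatty acid synthesis and elongation enzymes had a median fold of 2.88, above that of the 9 member enzymes, with 14 of 14 risen (beside 98.4%), 4 lower and 2 higher in share, near the 31.6% and 13.0% of protein-coding genes. SLC25A1, the citrate carrier that supplies ACLY, changed in share by -0.33 (adjusted p = 1.27e-05) and ME1, a source of NADPH, by -0.65 (adjusted p = 6.34e-05). MID1IP1, an activator of acetyl-CoA carboxylase, was higher by 0.26 (adjusted p = 0.000635), and HACD3, a dehydratase of elongation, had a change of -0.012 (adjusted p = 0.918). Fatty acid activation and glycerolipid enzymes had a median fold of 2.702, with 13 of 14 risen (all but ACSL6), 5 lower and 1 higher in share, also near those background percentages. The acyl-CoA synthetases ACSL4 and ACSL3 changed in share by -1.03 (adjusted p = 8.71e-23) and -0.42 (adjusted p = 1.88e-08). Of the phosphatidate phosphatases, LPIN1 had a change of 0.038 (adjusted p = 0.708) that did not pass and LPIN2 one of 0.29 that did (adjusted p = 0.000526).

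**Figure D3:**
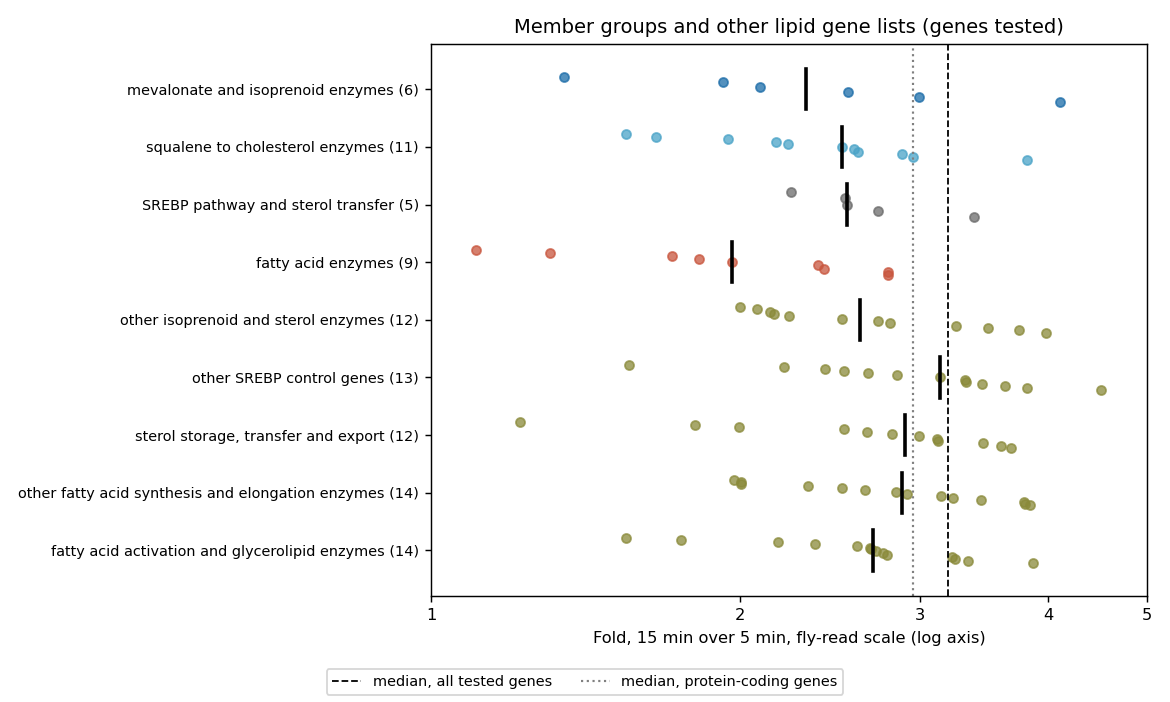
Folds on the fly-read scale (log axis), 15 over 5 min, of every tested gene in the 4 member groups and 5 further lipid lists; each point is a gene, black bars are list medians and the numbers count genes tested. The fatty acid enzymes have the lowest median, 1.96, and no point at or right of the line for all tested genes; the other SREBP control genes have the highest, 3.14.

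The deposited synthesis rates put the same genes among the faster made. The table gives 1 rate per gene with no unit, replicate or error, so genes are compared only by rank. No library is named for the rates, and they may have been derived from the same libraries as the levels. Rates and levels are therefore not treated as independent. The 28 genes with a rate had a median percentile of 77.3 among all genes with a rate, 16 were in the top 25% and 9 in the top 10%. CYP51A1, ACACA and FADS1 had no rate. INSIG1 ranked highest, at 0.172 (percentile 98.4), followed by SCD at 0.158 (percentile 98.2) and FASN at 0.154 (percentile 98.1). MSMO1, ELOVL5, STARD4, HMGCS1, FDFT1 and ELOVL6 made up the rest of the top 10%, at percentiles of 91.6 to 95.7. At the other end stood PMVK (percentile 28.2), FADS2 (30.7), HSD17B7 (41.9) and ACSS2 (47.2). The rates follow the levels: rho with the 15 min level per kb of exon was 0.95 across the 28 and 0.89 across 10737 tested genes. Between rate and fold rho was -0.13 (n = 28): FASN, SCD and INSIG1 sit together at the top of the rates with folds of 1.11, 1.72 and 2.53.

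**Figure D4:**
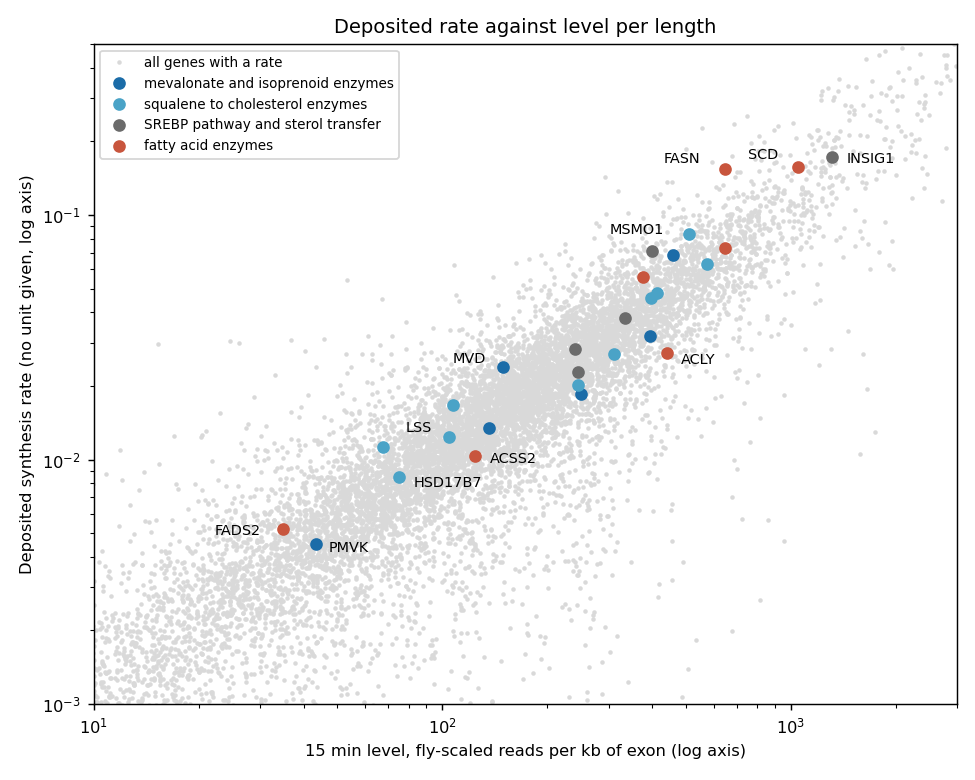
Deposited synthesis rate (no unit given) against the mean 15 min level in fly-scaled reads per kb of exon, both on log axes, for the 28 genes with a rate, coloured by role, and all other genes with a rate in grey within the plotted range. The coloured points run with the grey cloud, from PMVK and FADS2 to INSIG1, SCD and FASN, and ACLY lies at its lower edge.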

How the data were processed

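Labelled RNA of untreated K562 cells was read in 4 libraries, 2 per label time. The deposited files hold raw counts of reads per human gene and per fly gene, and 1 synthesis rate per gene for untreated cells, treated here as a score for which the sources used here state no scale, time unit or method and the authors list no error. The submitters' processing notes name bcl2fastq 2.17.1.14, STAR 2.7, featureCounts (Subread 2.0.1) and edgeR, with the builds hg38 and dm6. Counting feature, annotation and strandedness: not given in the sources used here. No column of sample values went unused.

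Human counts of genes passing filterByExpr (minimum count 10) were tested with edgeR 4.0.16 (quasi-likelihood, robust, R 4.3.3), with library sizes set to fly totals for accumulation and TMM for shares, and Benjamini-Hochberg adjustment over all 17322 genes at 0.05. The model holds label time only. SEs come from the fitted log2 fold change and its F value. Levels per length use exonic bases of GENCODE 29, which held 56590 of the 60279 identifiers. They assume counting over exons, since whether reads in introns were counted is not given. Libraries of one label time differed beyond counting noise (chi-square per degree of freedom 1.78 at 15 min and 1.62 at 5 min), so none was taken for a duplicate. The procedure was tested on simulated data. Alternatives were DESeq2 1.42.0, other scalings, no filter, a replicate block and each library left out.

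The 31 genes and the lists were chosen with earlier results of these data known. All 31 are named. From each further list the text names the 3 genes with the most reads per fly read and the 2 with the smallest share p among those passing, except that some of these are not reported here. Several well-known genes of the pathways are not analysed here.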

Additional observations from a re-analysis of the deposited data

How the results depend on the processing

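On the fly scale 27 to 31 of the 31 genes passed with one library left out, against 29, and none fell. Median folds then ranged from 2.06 to 2.62 for the mevalonate, 2.24 to 2.58 for the squalene to cholesterol, 2.28 to 2.87 for the SREBP and 1.76 to 2.23 for the fatty acid genes. Calls in share numbered 17 to 22, with 17 to 21 lower and 0 to 1 higher, and the median share changes ranged from -0.50 to -0.39, -0.44 to -0.36, -0.35 to -0.26 and -0.73 to -0.62 for the same groups. FDPS ranged from -0.15 to 0.018 in share, turning without 5 min replicate 2, and FASN from -0.020 to 0.33 in log2 fold on the fly scale, turning without 5 min replicate 1. Total-count scaling gave 3 higher calls and median share changes of -0.33, -0.22, -0.20 and -0.57 in that order, and turned FDPS to 0.041 and MSMO1 to 0.013; the shift of all genes by 0.12 is part of each. DESeq2 gave 0 higher calls in share, and over all genes 923 higher and 2370 lower against 2773 and 3829. It gave PMVK no adjusted p, so that gene is not counted there. The share calls of IDI1, STARD4 and ELOVL6 were lost with DESeq2, under total-count scaling and in at least 2 fits with a library left out; the cause was not tested. Without FASN, an alternative chosen after seeing the data, the fold of the summed fatty acid branch was 1.99 and the branch ratio at 15 min was 0.876 of that at 5 min. Without FADS1 and FDFT1 it was 0.737. Ranked only among genes that passed the filter, the median rate percentile was 75.2.

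Libraries with the same replicate number did not deviate together from their group means (correlation across genes 0.0484), so the numbers were not taken as pairs. With the replicate block, ACLY no longer passed on the fly scale (log2 0.39, adjusted p = 0.0654) and NSDHL passed in share (-0.30, adjusted p = 0.0394); the other calls of the 31 genes were unchanged under it. PMVK, with 14 to 43 reads per library, had the widest SE of the 31 on the fly scale (0.342 in log2).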

Other observations

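The genes of both SREBPs carry a microRNA of one family in an intron, miR-33b in SREBF1 and miR-33a in SREBF2, known to act on cholesterol export genes. Their mature 5p strands, from RefSeq on GRCh38.p14, share the seed (bases 2 to 8, in capitals).
miR-33a-5p (chr22:41900949-41900969, plus strand): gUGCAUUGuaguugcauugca
miR-33b-5p (chr17:17813897-17813916, minus strand): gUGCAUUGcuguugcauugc
The annotated hairpins were hardly read: MIR33A had 0 to 1 reads per library and MIR33B 3 to 6. Neither passed the filter on low counts, so no fold was fitted and a change with label time was not tested. Unscaled, MIR33B had 4 and 3 reads at 5 min and 6 and 5 at 15 min, where fly reads were fewer. On the fly scale the counts of the hosts SREBF2 and SREBF1 rose 2.54- and 3.39-fold.

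Several genes annotated inside the 31 loci had larger folds than their hosts. In ACACA, whose fold was 2.42, the processed pseudogenes AC244093.1 and HMGB1P24 on the same strand rose 7.82-fold (adjusted p = 5.39e-23) and 7.20-fold (adjusted p = 2.21e-17) on the fly scale. Unscaled, AC244093.1 had 16 and 21 reads at 5 min and 68 and 40 at 15 min. HMGB1P24 had 12 and 17 and then 40 and 38. RPS16P5, on the strand of ELOVL5, rose 5.76-fold (adjusted p = 2.89e-31), against 2.39 for ELOVL5. On the opposite strand SREBF2-AS1 rose 4.36-fold, against 2.54 for SREBF2, and its share change of 0.46 passed (adjusted p = 0.0121). AC093770.1, inside ELOVL6, differed little from its host, at 3.07- against 2.79-fold. These genes were picked after their values were seen. AC244093.1, HMGB1P24 and RPS16P5 share no exonic bases with their hosts. Their reads cannot be told apart from intron RNA of the host on the same strand. Reads of processed pseudogenes can also be shared with their parent genes elsewhere, and the difference between a gene and its host was not tested.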
